A study of Mus musculus with 15 samples.

Results

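The genes of cholesterol synthesis and of its regulator, sterol regulatory element binding protein 2 (SREBP2), were followed in mouse liver: 29 genes of the 54281 in the deposited table. The members are named by symbol, as enzymes of the sterol pathway and parts of the SREBP2 system. Of the members, 20 are enzymes that lead from acetyl-CoA to cholesterol, 6 process SREBP2 and 3 move or esterify sterols. All 29 passed the filter on low values, as did 11568 genes in all.

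Liver RNA was sequenced from 15 male C57BL6J mice aged 9.5 months, with 1 library per animal. DEN/HFD animals received the liver carcinogen diethylnitrosamine (DEN) at 25 mg/kg when 2 weeks old, ate chow until week 6 and then lard-based food rich in fat (HFD, 60% of the energy) for 32 weeks. Chow animals received the vehicle in place of DEN and stayed on chow, so the carcinogen and the diet cannot be told apart. MCOPPB, which binds selectively to the nociceptin/orphanin FQ receptor and is called a senolytic in the study's title, was injected intraperitoneally at 5 mg/kg in 3 cycles of 5 daily doses and 2 days of washout, and control animals received saline. The groups were DEN/HFD with MCOPPB (n = 3), DEN/HFD with saline (n = 4), chow with MCOPPB (n = 5) and chow with saline (n = 3).

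Hepatocytes make much of the body's cholesterol from acetyl-CoA by way of mevalonate, isopentenyl diphosphate, squalene and lanosterol. When membranes of the endoplasmic reticulum are low in sterol, the escort protein SCAP carries SREBP2 to the Golgi, where the proteases encoded by Mbtps1 and Mbtps2 release its active part, and this turns on the genes of the pathway and Srebf2 itself. With enough sterol, INSIG1 or INSIG2 holds SCAP back in the endoplasmic reticulum, so a sterol-fed liver is known for low levels of these transcripts.

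The libraries held an estimated 9.32 M to 18.7 M assigned reads, with 13863 to 16675 genes detected in each. The 8 hepatocyte markers summed to 1620999 to 3790719 normalized counts per library, with none at 0. RNA integrity numbers averaged 9.00 ± 0.265 in DEN/HFD MCOPPB livers (n = 3), 8.85 ± 0.342 in DEN/HFD saline livers (n = 4), 9.96 ± 0.0548 in chow MCOPPB livers (n = 5) and 9.23 ± 0.404 in chow saline livers (SD, n = 3). Some libraries stood apart for the enzymes as a group. Of 15 libraries, chow MCOPPB 3 held the highest level of 15 of the 20 enzymes, and DEN/HFD saline 4 held the lowest level of 11. Chow saline 3 was the highest of its group in 17 of the 20, and DEN/HFD MCOPPB 2 the lowest of its group in 15. The mean log2 level of the 20 enzymes ran from 9.31 to 9.62 in DEN/HFD MCOPPB livers, 8.69 to 9.14 in DEN/HFD saline livers, 9.63 to 10.5 in chow MCOPPB livers and 9.05 to 9.72 in chow saline livers.

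**Figure D1:**
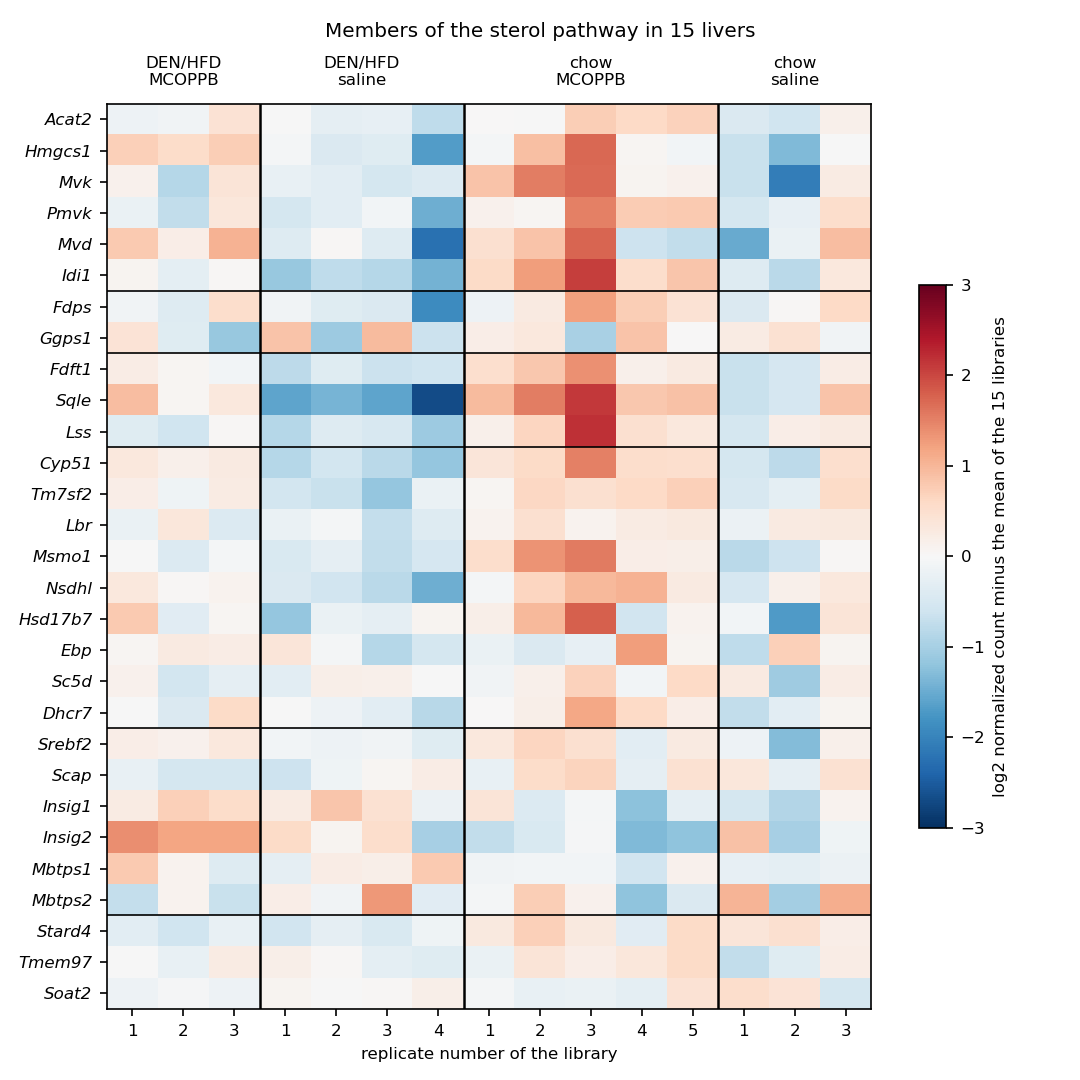
Levels of the 29 members (rows, ordered from early enzymes to sterol transport) in the 15 libraries (columns, by group and replicate number), as log2 normalized count minus the mean of the 15 libraries; red is above and blue below that mean. Chow MCOPPB 3 was the highest of all libraries in 15 of the 20 enzymes and DEN/HFD saline 4 the lowest in 11, and the 3 DEN/HFD MCOPPB livers stand out in Insig2.

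With MCOPPB, 3 sterol synthesis enzymes rose over both diets. They were Sqle, squalene epoxidase, a rate-limiting step of the late pathway, Idi1, isopentenyl diphosphate isomerase, and Cyp51, lanosterol demethylase. In the limma model with diet as an additive term, 43 genes (0.372% of those tested) passed an adjusted p of 0.05, 0.138% upward, and these 3 of the 29 members were among them. The log2 difference between MCOPPB and saline livers was positive in 24 of the 29 members, beside 50.0% of all genes. It was positive in 19 of the 20 enzymes, with a median of 0.55, against a median of 0.0001 over all genes tested. At an unadjusted p under 0.05 stood 17 of the 29 members, beside 6.50% of all genes. The members were chosen with earlier results of these data known. Their levels also moved together within a library, so these counts do not stand for that many independent observations. Within a single diet no member passed the adjusted threshold: MCOPPB called 3 genes under DEN/HFD (0.0259%) and 37 on chow (0.320%). At an unadjusted p under 0.05 stood 9 members under DEN/HFD, beside 4.74% of all genes, and 14 on chow, beside 9.06%. On chow, levels of MCOPPB and saline livers did not overlap in 2 members, both higher with MCOPPB (2.64% of all genes), and under DEN/HFD in 10 that were higher (3.22%) and 1 that was lower (3.74%). Both within-diet comparisons use different animals, while the comparison over both diets uses all 15.

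Sqle had 465, 254 and 306 normalized counts in DEN/HFD MCOPPB livers, against 81.4, 93.3, 81.4 and 38.1 in DEN/HFD saline livers. On chow it had 472, 706, 1074, 427 and 453 with MCOPPB, against 156, 174 and 443 with saline. Under DEN/HFD every MCOPPB liver lay above every saline liver, whereas chow MCOPPB 4 lay below chow saline 3. The ratio of group means was 4.65 under DEN/HFD and 2.43 on chow. On the deposited scale, which compresses differences of genes with few reads, the log2 difference of Sqle was 1.50 ± 0.31 (SE, adjusted p = 0.161) under DEN/HFD and 1.09 ± 0.30 (adjusted p = 0.192) on chow. Over both diets it was 1.29 ± 0.21 (adjusted p = 0.00683). A fit on the DEN/HFD libraries alone called Sqle, with an adjusted p of 0.0432. Across all 15 libraries Sqle spanned 28.2-fold, the widest range of any member.

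Idi1 had 897, 684 and 857 normalized counts in DEN/HFD MCOPPB livers, against 381, 498, 465 and 313 in DEN/HFD saline livers. On chow it had 1257, 2021, 3555, 1208 and 1490 with MCOPPB, against 647, 481 and 1045 with saline. In both diets all MCOPPB livers were above all saline livers, and chow MCOPPB 3 was far above the rest. The log2 difference of Idi1 was 0.86 ± 0.31 under DEN/HFD (adjusted p = 0.853), 1.24 ± 0.30 on chow (adjusted p = 0.11) and 1.06 ± 0.21 over both (adjusted p = 0.0335).

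Cyp51 had 1525, 1354 and 1468 normalized counts in DEN/HFD MCOPPB livers, against 670, 826, 697 and 545 in DEN/HFD saline livers. On chow it had 1560, 1816, 3446, 1766 and 1715 with MCOPPB, against 839, 701 and 1731 with saline. The DEN/HFD groups were well apart, while on chow 2 of the MCOPPB livers lay below chow saline 3. The log2 difference of Cyp51 was 1.01 ± 0.28 under DEN/HFD (adjusted p = 0.512), 0.91 ± 0.27 on chow (adjusted p = 0.243) and 0.95 ± 0.19 over both (adjusted p = 0.0313).

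These calls rest on few animals. Sqle stayed called over both diets when any of the 15 libraries was left out (log2 difference 1.18 to 1.48). Cyp51 was called in 7 of the 15 such fits, with adjusted p up to 0.106, and lost the call without any of the 3 DEN/HFD MCOPPB livers, without DEN/HFD saline 1, 3 or 4, and without chow saline 1 or 2. Idi1 was also called in 7, with adjusted p up to 0.113, and lost the call without DEN/HFD MCOPPB 1 or 3, DEN/HFD saline 1 or 4, chow MCOPPB 2 or 5, or chow saline 1 or 2. Without the filter on low values Cyp51 (adjusted p = 0.0584) and Idi1 (adjusted p = 0.0698) missed the threshold, as did Idi1 with array weights (adjusted p = 0.0569). With the RNA integrity number as a covariate no member was called, although the log2 differences stayed at 1.36 for Sqle (adjusted p = 0.103), 1.04 for Cyp51 (adjusted p = 0.173) and 1.03 for Idi1 (adjusted p = 0.303). The integrity number was highest in the chow MCOPPB group, and its part in the result was not tested further.

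**Figure D2:**
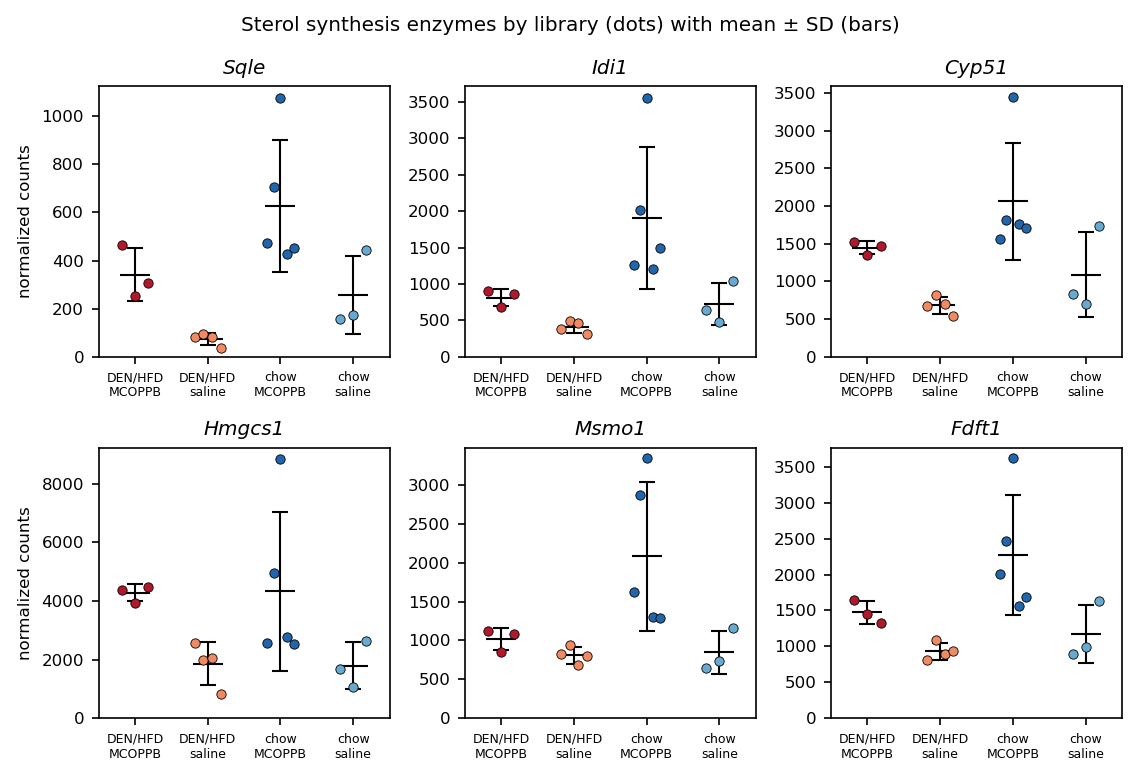
Normalized counts (vertical axes, each starting at 0) of 6 sterol synthesis enzymes in the 4 groups; each dot is 1 library and the bars give the group mean ± SD. In Sqle, Idi1, Cyp51, Hmgcs1 and Fdft1 the 3 DEN/HFD MCOPPB livers lie above all 4 DEN/HFD saline livers, and the highest chow MCOPPB dot is replicate 3 in every panel.

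The promoter letters of some enzymes and of Srebf2 are shown with the sites through which SREBP2 is known to act. Whether these sites had a part in the differences between groups was not tested. Windows from 250 bases before to 50 bases after the annotated start were available for 24 of the 29 members (RefSeq, GRCm38.p6). Sqle, Fdft1, Fdps, Soat2 and Stard4 had no window and were not searched. Both strands were searched for a sterol regulatory element written as TCACNCCA, for the CCAAT box (CCAAT), where NF-Y binds beside SREBP, and for the GC box (GGGCGG). The element ends in the letters with which the CCAAT box begins, so matches of both could overlap. The element was found in 3 of the 24 genes (Hmgcs1, Msmo1 and Srebf2), beside 4.97% of the 27025 genes with a window. A CCAAT box was found in 20 of the 24, beside 41.1%, and a GC box in 21, beside 38.2%. Some genes had more than 1 window. By window, a CCAAT box was in 20 of 30 member windows, beside 37.4% of 32851, and a GC box in 24, beside 35.7%. These shares were taken over all genes with a window, whether or not liver expressed them. These are matches of letters, not measured binding, and a sterol regulatory element written differently or lying outside the window would be missed. Below are the 3 windows with the element, then those of Idi1 and Cyp51, which rose with MCOPPB and hold CCAAT and GC boxes but no match to the element. Capitals mark the element and the CCAAT box on either strand (ATTGG on the opposite strand).
Hmgcs1, chr13:119690101-119690400, plus strand: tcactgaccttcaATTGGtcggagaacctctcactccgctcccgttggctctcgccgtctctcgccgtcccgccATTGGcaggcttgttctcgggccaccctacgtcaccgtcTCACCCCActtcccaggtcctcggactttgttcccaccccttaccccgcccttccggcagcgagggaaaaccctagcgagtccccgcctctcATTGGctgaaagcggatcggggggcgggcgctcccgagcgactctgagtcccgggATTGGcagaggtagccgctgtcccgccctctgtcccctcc
Msmo1, chr8:64733529-64733828, minus strand: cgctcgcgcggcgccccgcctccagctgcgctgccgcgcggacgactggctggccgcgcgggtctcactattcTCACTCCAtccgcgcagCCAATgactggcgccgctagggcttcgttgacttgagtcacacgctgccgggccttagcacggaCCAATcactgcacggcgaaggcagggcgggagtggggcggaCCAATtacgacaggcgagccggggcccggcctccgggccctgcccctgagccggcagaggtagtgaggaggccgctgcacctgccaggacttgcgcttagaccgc
Srebf2, chr15:82147019-82147318, plus strand: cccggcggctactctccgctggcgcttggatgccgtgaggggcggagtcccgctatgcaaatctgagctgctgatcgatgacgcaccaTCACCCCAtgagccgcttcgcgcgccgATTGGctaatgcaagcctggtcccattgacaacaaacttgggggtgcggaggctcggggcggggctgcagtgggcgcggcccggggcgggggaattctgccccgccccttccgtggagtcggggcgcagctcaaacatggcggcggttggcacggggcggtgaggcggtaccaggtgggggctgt
Idi1, chr13:8885356-8885655, plus strand: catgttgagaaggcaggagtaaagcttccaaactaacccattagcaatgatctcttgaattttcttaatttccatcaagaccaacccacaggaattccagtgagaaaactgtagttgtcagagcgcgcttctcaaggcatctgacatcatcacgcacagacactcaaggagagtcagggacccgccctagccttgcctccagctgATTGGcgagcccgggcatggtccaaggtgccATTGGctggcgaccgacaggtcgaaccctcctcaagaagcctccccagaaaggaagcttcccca
Cyp51, chr5:4104648-4104947, minus strand: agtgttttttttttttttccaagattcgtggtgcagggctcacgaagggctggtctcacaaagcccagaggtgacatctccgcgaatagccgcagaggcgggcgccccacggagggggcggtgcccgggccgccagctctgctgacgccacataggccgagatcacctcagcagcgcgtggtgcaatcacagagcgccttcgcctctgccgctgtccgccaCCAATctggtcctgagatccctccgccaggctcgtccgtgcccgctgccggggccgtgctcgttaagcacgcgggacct
Counted from the annotated start, the element lies at -137 in Hmgcs1 (TCACCCCA), -177 in Msmo1 (TCACTCCA) and -162 in Srebf2 (TCACCCCA).

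Among the 6 enzymes from acetyl-CoA to isopentenyl diphosphate, the difference was positive in all 6 over both diets, with a median of 0.61, and Idi1 was the member called. Hmgcs1, the cytosolic HMG-CoA synthase, had 4391, 3943 and 4488 normalized counts in DEN/HFD MCOPPB livers, against 2566, 1977, 2073 and 841 in DEN/HFD saline livers. On chow, its counts were 2582, 4966, 8832, 2775 and 2518 with MCOPPB, against 1680, 1076 and 2640 with saline. The DEN/HFD groups did not overlap, and on chow the lower MCOPPB livers reached the level of chow saline 3. Its log2 difference was 1.26 ± 0.42 under DEN/HFD (adjusted p = 0.758) and 1.19 ± 0.28 over both diets (adjusted p = 0.0903).

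Mvk, mevalonate kinase, had 103, 52.2 and 123 normalized counts in DEN/HFD MCOPPB livers, against 79.9, 75.2, 64.6 and 70.9 in DEN/HFD saline livers. In chow livers it had 170, 272, 305, 98.5 and 102 with MCOPPB, against 58.9, 22.2 and 112 with saline. Its groups overlapped in both diets, and on chow the log2 difference was 0.96 ± 0.28 (adjusted p = 0.227). Acat2, the acetoacetyl-CoA thiolase of the cytosol, averaged 956 ± 228 normalized counts in DEN/HFD MCOPPB livers, 731 ± 149 in DEN/HFD saline livers, 1223 ± 297 in chow MCOPPB livers and 756 ± 210 in chow saline livers (SD; n = 3, 4, 5 and 3). Over both diets its log2 difference was 0.50 ± 0.16 (adjusted p = 0.384). Mvd, mevalonate diphosphate decarboxylase, ran from 162 to 289 in DEN/HFD MCOPPB livers, 29.6 to 145 in DEN/HFD saline livers, 84.6 to 470 in chow MCOPPB livers and 49.3 to 266 in chow saline livers. Its DEN/HFD groups were apart, and its chow groups overlapped. Pmvk, phosphomevalonate kinase, ran from 269 to 566 in DEN/HFD MCOPPB livers, 162 to 420 in DEN/HFD saline livers, 467 to 1281 in chow MCOPPB livers and 311 to 643 in chow saline livers, with overlap in both diets.

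The prenyl diphosphate enzymes did not share a direction. Fdps, farnesyl diphosphate synthase, ran from 1616 to 3048 normalized counts in DEN/HFD MCOPPB livers, 579 to 1982 in DEN/HFD saline livers, 1899 to 4979 in chow MCOPPB livers and 1571 to 3241 in chow saline livers. Ggps1, geranylgeranyl diphosphate synthase, which leads out of the sterol branch to protein prenylation, ran from 26.3 to 76.9 in DEN/HFD MCOPPB livers, 27.3 to 110.5 in DEN/HFD saline livers, 29.3 to 104 in chow MCOPPB livers and 54.0 to 79.6 in chow saline livers. Ggps1 was the single enzyme of the 20 whose difference over both diets was not positive, and all its groups overlapped.

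On the way to lanosterol, all 3 enzymes had a positive difference in both diets. Fdft1, squalene synthase, had 1647, 1448 and 1324 normalized counts in DEN/HFD MCOPPB livers, against 813, 1090, 896 and 931 in DEN/HFD saline livers. In the chow groups it had 2001, 2460, 3624, 1562 and 1687 with MCOPPB, against 889, 986 and 1635 with saline. The DEN/HFD groups were apart and the chow groups touched. Its log2 difference was 0.89 ± 0.25 on chow (adjusted p = 0.207) and 0.76 ± 0.18 over both diets (adjusted p = 0.0855). Lss, lanosterol synthase, had 329, 278 and 430 in DEN/HFD MCOPPB livers, against 234, 319, 302 and 196 in DEN/HFD saline livers. On chow Lss had 466, 657, 1929, 589 and 521 with MCOPPB, against 293, 483 and 504 with saline. Its groups overlapped in both diets, and its chow MCOPPB mean was carried by replicate 3.

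From lanosterol to cholesterol, the difference over both diets was positive in all 9 enzymes, with a median of 0.50, and Cyp51 was the member called. Msmo1, a methylsterol monooxygenase, had 1117, 850 and 1089 normalized counts in DEN/HFD MCOPPB livers, against 827, 942, 678 and 799 in DEN/HFD saline livers. Chow livers had 1627, 2867, 3340, 1299 and 1283 with MCOPPB, against 645, 736 and 1162 with saline. Here the chow groups were apart and the DEN/HFD groups overlapped. The log2 difference of Msmo1 was 1.15 ± 0.28 on chow (adjusted p = 0.13) and 0.74 ± 0.22 over both diets (adjusted p = 0.305).

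Nsdhl, which acts after Msmo1 in removing the methyl groups, had 908, 750 and 789 normalized counts in DEN/HFD MCOPPB livers, against 547, 489, 421 and 267 in DEN/HFD saline livers. Among chow livers it had 702, 1145, 1445, 1510 and 888 with MCOPPB, against 519, 810 and 909 with saline. The DEN/HFD groups did not overlap and the chow groups did. Its log2 difference was 0.84 ± 0.26 under DEN/HFD (adjusted p = 0.688) and 0.68 ± 0.18 over both diets (adjusted p = 0.16). Tm7sf2, a sterol reductase, averaged 324 ± 43.2 in DEN/HFD MCOPPB livers, 198 ± 53.1 in DEN/HFD saline livers, 431 ± 69.9 in chow MCOPPB livers and 303 ± 127 in chow saline livers (SD; n = 3, 4, 5 and 3). Its DEN/HFD groups did not overlap, and the log2 difference over both diets was 0.50 ± 0.15 (adjusted p = 0.264).

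The other enzymes of this stretch overlapped between MCOPPB and saline livers in both diets. Dhcr7, the reductase that makes cholesterol from its last precursor, ran from 415 to 833 normalized counts in DEN/HFD MCOPPB livers, 313 to 553 in DEN/HFD saline livers, 566 to 1254 in chow MCOPPB livers and 337 to 592 in chow saline livers. Hsd17b7, the keto reductase of the demethylation steps, ran from 197 to 429, 112 to 265, 168 to 864 and 77.8 to 327 in the same groups. Sc5d, a sterol desaturase, ran from 3609 to 5732, 4201 to 5922, 4842 to 8464 and 2507 to 6353. Ebp, a sterol isomerase, ran from 2608 to 2986, 1373 to 3204, 1850 to 5949 and 1476 to 4087, and its highest value belonged to chow MCOPPB 4, not to replicate 3. Lbr, the lamin B receptor, which also has sterol reductase activity, had 45.5 to 76.4, 37.1 to 58.2, 65.7 to 84.4 and 53.8 to 75.02.

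Of the 6 genes that process SREBP2, none was called for MCOPPB, and the difference over both diets was positive in 4, with a median of 0.07. Srebf2, which encodes SREBP2, had 223, 213 and 241 normalized counts in DEN/HFD MCOPPB livers, against 183, 174, 181 and 151 in DEN/HFD saline livers. The chow livers had 244, 302, 271, 156 and 233 with MCOPPB, against 176, 79.2 and 218 with saline. The DEN/HFD groups did not overlap, the chow groups did, and the log2 difference over both diets was 0.39 ± 0.14 (adjusted p = 0.517; 0.25 without chow saline 2). Scap, the SREBP escort, ran from 266 to 329 in DEN/HFD MCOPPB livers, 249.7 to 442 in DEN/HFD saline livers, 318 to 605 in chow MCOPPB livers and 316 to 520 in chow saline livers.

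The proteases overlapped in every comparison. Mbtps1 ran from 244 to 552 normalized counts in DEN/HFD MCOPPB livers, 266 to 555 in DEN/HFD saline livers, 214 to 353 in chow MCOPPB livers and 261 to 286 in chow saline livers. Mbtps2 ran from 23.4 to 41.4, 30.1 to 94.2, 16.7 to 63.6 and 18.8 to 81.3 in the same groups.

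**Figure D3:**
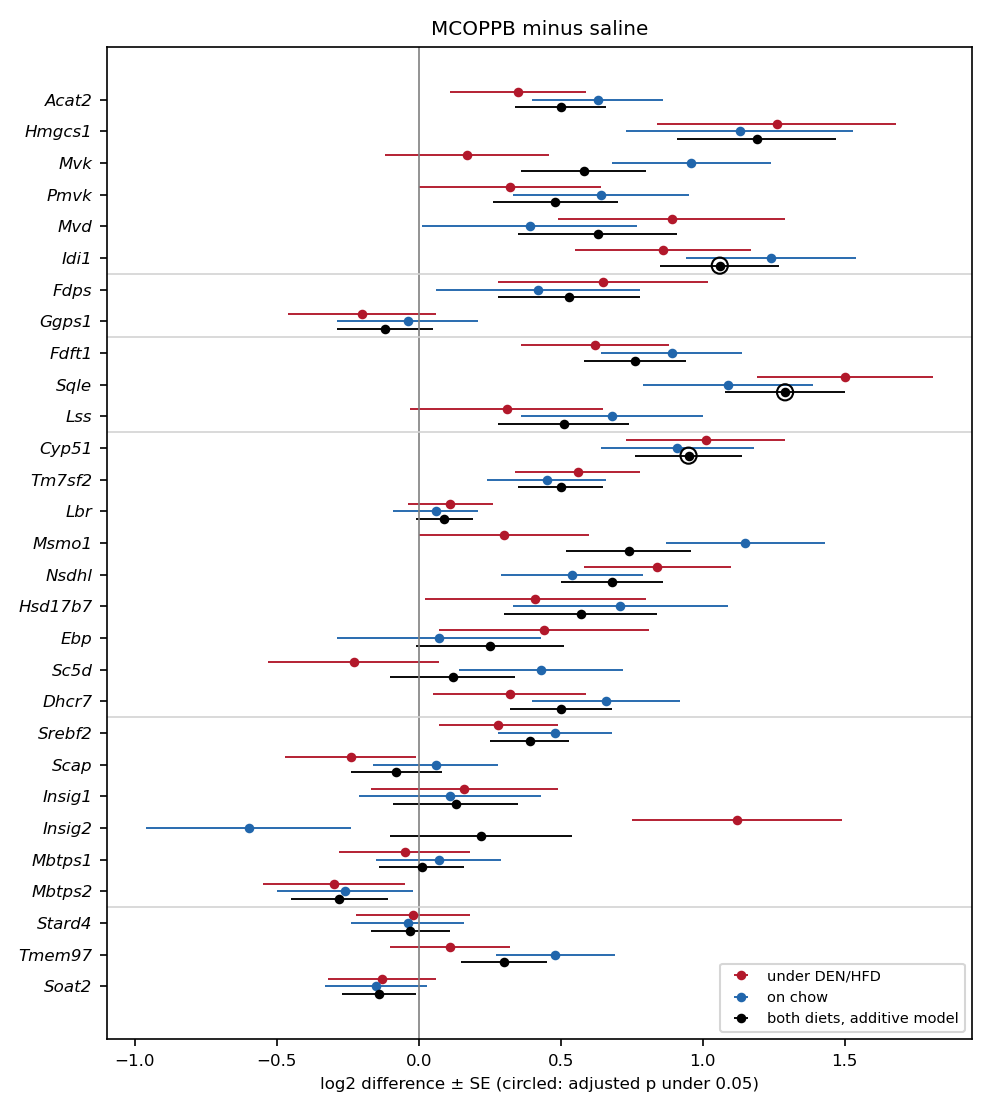
MCOPPB minus saline log2 difference ± SE (horizontal axis) for each of the 29 members, under DEN/HFD, on chow and over both diets in the additive model; circles mark an adjusted p under 0.05. Over both diets 19 of the 20 enzymes lie right of 0 and Sqle, Idi1 and Cyp51 are circled, while Insig2 lies right of 0 under DEN/HFD and left of it on chow.

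Insig2 and Insig1 retain SCAP. In mouse liver an Insig2 transcript is known to rise on fasting, and Insig1 is itself a target of SREBPs. Insig2 had 2371, 2043 and 2029 normalized counts in DEN/HFD MCOPPB livers, against 1336, 955, 1295 and 451 in DEN/HFD saline livers. On chow, its counts were 534, 650, 881, 359 and 390 with MCOPPB, against 1651, 446 and 825 with saline. The 3 DEN/HFD MCOPPB livers were above all other 12 libraries, and the chow groups overlapped. The log2 difference of Insig2 for MCOPPB under DEN/HFD was 1.12 ± 0.37 (adjusted p = 0.758). The difference between its MCOPPB effects under DEN/HFD and on chow was 1.72 ± 0.52 (adjusted p = 0.577), which did not pass.

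Between DEN/HFD and chow livers that both received MCOPPB, Insig2 was the only member called. It was higher under DEN/HFD by 1.84 ± 0.36 on the log2 scale (adjusted p = 0.0253), with a ratio of means of 3.82, and the groups did not overlap (4.63% of all genes were apart in this direction). In this comparison 66 genes were called (0.571%, with 0.225% upward). The call of Insig2 was kept in 10 of 15 fits with a library left out and lost without any of the 3 DEN/HFD MCOPPB livers or without chow MCOPPB 1 or 5, with adjusted p up to 0.163 and differences of 1.72 to 2.00. With the RNA integrity number as a covariate it was 1.16 (adjusted p = 0.424). Of 10 fasting and feeding genes in the same comparison, 6 were positive and 4 negative, with a median of 0.62. Fgf21, a hepatic hormone of fasting, was called higher (1.05 ± 0.21, adjusted p = 0.0258), and the other 9 were not called.

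Insig1 had 10578, 14607 and 12959 normalized counts in DEN/HFD MCOPPB livers, against 11611, 6718, 8515, 3767 and 7377 in chow MCOPPB livers. In saline livers it had 10473, 15952, 12289 and 7906 under DEN/HFD, against 6222, 4845 and 9575 on chow. Levels under DEN/HFD were mostly higher, with overlap in both treatments. The log2 difference of Insig1 was 0.81 ± 0.32 in MCOPPB livers (adjusted p = 0.292), 0.76 ± 0.33 in saline livers (adjusted p = 0.398) and 0.79 ± 0.22 over both (adjusted p = 0.0853). Between MCOPPB and saline livers Insig1 overlapped in both diets, with ratios of means of 1.09 under DEN/HFD and 1.10 on chow.

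**Figure D4:**
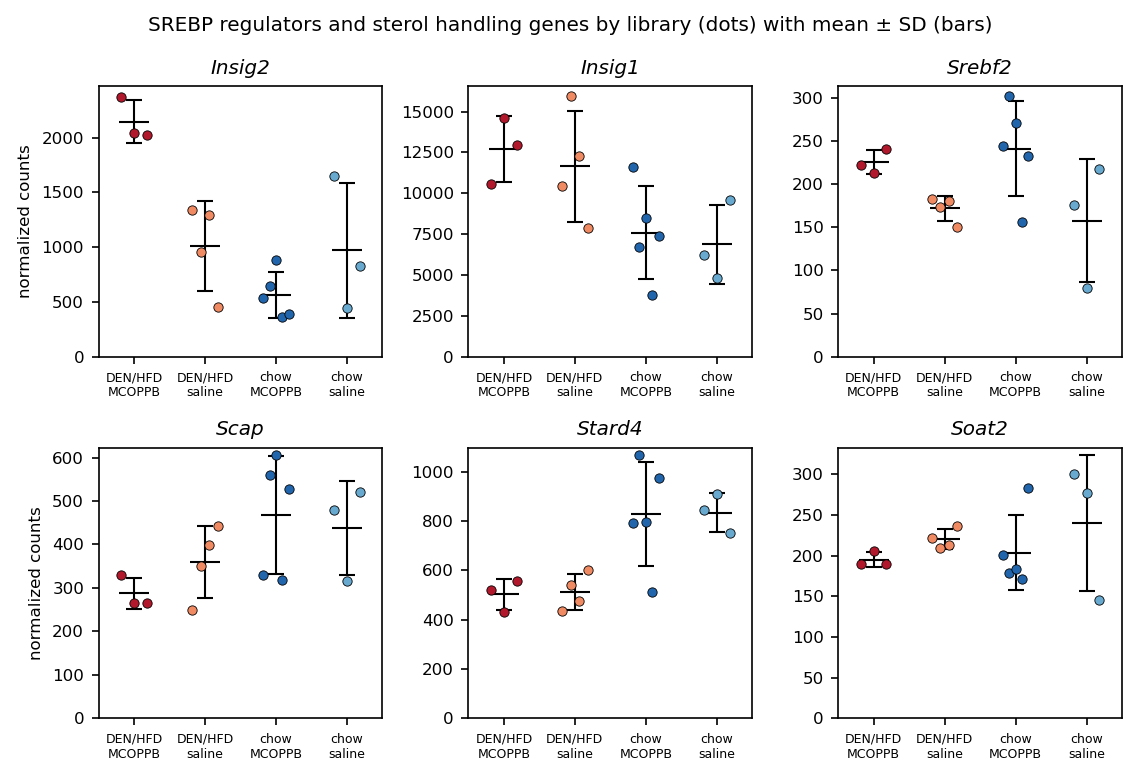
Normalized counts (vertical axes, each starting at 0) of 4 genes that process SREBP2 and of 2 sterol handling genes in the 4 groups; each dot is 1 library and the bars give the group mean ± SD. All 3 DEN/HFD MCOPPB livers lie above the other 12 libraries in Insig2, and Stard4 is lower in both DEN/HFD groups than in chow saline livers.

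Under DEN/HFD, over both treatments, Sqle and Stard4 fell. Stard4 encodes a protein that carries sterols between membranes. The additive model called 153 genes for DEN/HFD (1.32%, with 0.579% downward), among them these 2 members. The log2 difference was positive in 5 of the 29 members, beside 49.6% of all genes, and negative in 19 of the 20 enzymes, with a median of -0.31 against -0.0016 over all genes. At an unadjusted p under 0.05 stood 14 of the 29 members, beside 16.7% of all genes. The diet comparisons use the same libraries as the MCOPPB comparisons, so they are not independent of them. The limits given for the MCOPPB counts of members apply here as well. In saline livers alone 6 genes were called (0.0519%), none of them members, and 5 members stood at an unadjusted p under 0.05, beside 11.0% of all genes. In MCOPPB livers 11 members did, beside 12.3%. DEN/HFD levels were below chow levels without overlap in 2 members in saline livers (4.36% of all genes) and in 4 members in MCOPPB livers (4.68%).

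Stard4 had 521, 431 and 556 normalized counts in DEN/HFD MCOPPB livers, against 793, 1067, 796, 512 and 976 in chow MCOPPB livers. In saline livers it had 437, 540, 474 and 601 under DEN/HFD, against 844, 909 and 751 on chow. The saline groups were apart, and among MCOPPB livers chow MCOPPB 4 reached the DEN/HFD level. The log2 difference of Stard4 was -0.61 ± 0.20 in MCOPPB livers (adjusted p = 0.196), -0.63 ± 0.20 in saline livers (adjusted p = 0.26) and -0.62 ± 0.14 over both (adjusted p = 0.0333). Between MCOPPB and saline livers its levels overlapped in both diets.

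For Sqle, with the levels given above, the saline groups were apart, and the DEN/HFD mean was 0.286 times the chow mean. Its log2 difference was -1.11 ± 0.31 in saline livers (adjusted p = 0.2; -0.74 without chow saline 3) and -0.89 ± 0.21 over both treatments (adjusted p = 0.0455). Sqle kept this call in 5 of 15 fits with a library left out and Stard4 in 4. Sqle was called without DEN/HFD MCOPPB 1, DEN/HFD saline 4, chow MCOPPB 4 or 5, or chow saline 1, and lost the call without any of the other libraries (log2 difference -1.01 to -0.72, adjusted p up to 0.114). Stard4 was called without DEN/HFD saline 4, chow MCOPPB 4 or chow saline 1 or 3, and lost the call without any of the others (-0.69 to -0.57, adjusted p up to 0.0934). With the RNA integrity number as a covariate the values were -1.01 for Sqle (adjusted p = 0.482) and -0.52 for Stard4 (adjusted p = 0.503), and without the filter on low values both missed the threshold (adjusted p = 0.0871 and 0.0625).

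Several enzymes lay below chow levels under DEN/HFD without passing the test. Idi1 differed by -1.04 ± 0.30 in MCOPPB livers (adjusted p = 0.133), where the groups were apart, by -0.66 ± 0.31 in saline livers (adjusted p = 0.448; -0.38 without chow saline 3), and by -0.86 ± 0.21 over both (adjusted p = 0.0533). Lss differed by -0.92 ± 0.32 in MCOPPB livers, without overlap (adjusted p = 0.239; -0.59 without chow MCOPPB 3), and by -0.74 ± 0.23 over both treatments (adjusted p = 0.113). Msmo1 differed by -0.87 ± 0.28 in MCOPPB livers, again without overlap (adjusted p = 0.202), whereas in saline livers its mean was 812 ± 108 under DEN/HFD (n = 4) and 848 ± 276 on chow (SD, n = 3). Nsdhl differed by -0.69 ± 0.26 in saline livers (adjusted p = 0.323) and by -0.54 ± 0.18 over both (adjusted p = 0.132). Over both treatments the difference was -0.58 ± 0.22 for Pmvk (adjusted p = 0.184), -0.38 ± 0.15 for Tm7sf2 (adjusted p = 0.186) and -0.47 ± 0.19 for Cyp51 (adjusted p = 0.207; -0.31 without chow saline 3). Insig2 differed by 1.02 ± 0.32 over both treatments (adjusted p = 0.119), opposite in sign to 19 of the 20 enzymes, as was Insig1 with the difference given above.

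**Figure D5:**
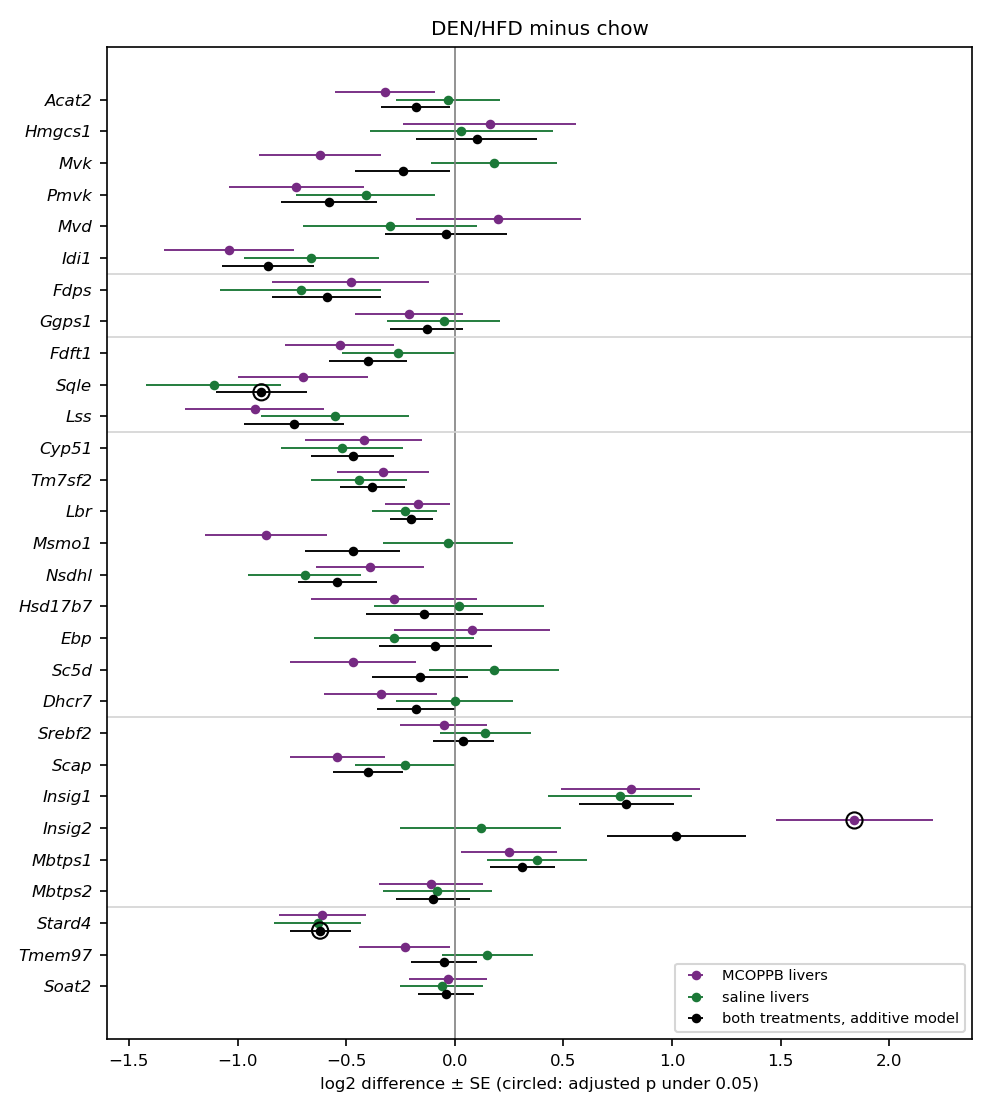
DEN/HFD minus chow log2 difference ± SE (horizontal axis) for each of the 29 members, in MCOPPB livers, in saline livers and over both treatments in the additive model; circles mark an adjusted p under 0.05. Over both treatments 19 of the 20 enzymes lie left of 0, Sqle and Stard4 are circled below 0, and Insig2 is circled above 0 in MCOPPB livers.

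The remaining sterol handling genes showed no call in any comparison. Soat2, which esterifies cholesterol in hepatocytes, had 190, 190 and 206 normalized counts as the ordered values of the DEN/HFD MCOPPB livers, against a range of 209.5 to 236 in DEN/HFD saline livers, so these groups did not overlap. On chow it ran from 171 to 283 with MCOPPB and 145 to 299.8 with saline. Tmem97, a sterol-binding sigma receptor, ran from 559 to 767 in DEN/HFD MCOPPB livers, 500.2 to 732 in DEN/HFD saline livers, 568 to 964 in chow MCOPPB livers and 391 to 752 in chow saline livers, with overlap throughout.

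The MCOPPB effect was compared between the diets by the interaction term, which called 8 genes (0.0692%) and no member. At an unadjusted p under 0.05 stood 1 member, Insig2, beside 5.90% of all genes. The next smallest p belonged to Msmo1, at -0.85 ± 0.41, and Mvk, at -0.80 ± 0.40 or -0.52 without chow saline 2 (adjusted p = 0.835 each with all libraries), both with the larger MCOPPB difference on chow. With groups of 3 to 5 animals these intervals are wide, and the missed threshold does not show that the diets gave the same response.

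Of 12 other SREBP2 targets, 11 passed the filter and none was called in any comparison. For MCOPPB over both diets 7 of the 11 were positive, with a median of 0.22. The median was 0.03 under DEN/HFD (7 positive, 4 negative) and 0.23 on chow (8 positive, 3 negative). Over both diets the smallest p belonged to Mmab, a cobalamin adenosyltransferase that shares its promoter region with Mvk (0.42 ± 0.14, adjusted p = 0.384). For DEN/HFD over both treatments 7 were negative, with a median of -0.44, led by Acss2, acetyl-CoA synthetase (-1.0 ± 0.26, adjusted p = 0.0653), and Rdh11, a retinol dehydrogenase (-0.78 ± 0.21, adjusted p = 0.0751). None of 9 SREBP1c and lipogenesis genes was called, and the smallest p for MCOPPB over both diets belonged to Srebf1, which encodes SREBP1 (-0.85 ± 0.20, adjusted p = 0.0903). The 9 genes of HMG-CoA reductase and squalene epoxidase turnover, 9 of sterol trafficking, 6 of sterol disposal and 11 of nonsterol isoprenoid branches had no call, with medians for MCOPPB over both diets of 0.04, 0.19, 0.09 and -0.06.

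Among 8 LXR targets and sterol efflux genes, Abcg5 was called. Abcg5 encodes part of the transporter that excretes sterols into bile. It averaged 253 ± 68.6 normalized counts in DEN/HFD MCOPPB livers, 540 ± 129 in DEN/HFD saline livers, 486 ± 125 in chow MCOPPB livers and 883 ± 193 in chow saline livers (SD; n = 3, 4, 5 and 3). With MCOPPB it fell by 0.83 on the log2 scale over both diets (SE 0.15, adjusted p = 0.0176), and its MCOPPB and saline livers did not overlap in either diet. Under DEN/HFD it fell by 0.70 (SE 0.15, adjusted p = 0.0325).

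Markers of other cells moved with some groups. In bulk liver, fewer cells of a type and less RNA per cell cannot be told apart. The 6 Kupffer cell markers summed to 1652 to 3303 normalized counts in DEN/HFD MCOPPB livers, 1272 to 3149 in DEN/HFD saline livers, 1408 to 2789 in chow MCOPPB livers and 688 to 1020 in chow saline livers. All 6 were detected, and on chow the sums did not overlap, although no marker was called there. The 5 other macrophage markers summed to 665 to 828, 334 to 1064, 360 to 502 and 154 to 396 in the same groups, with Cd68 called higher under DEN/HFD (0.80 ± 0.17, adjusted p = 0.0296). The 4 adipocyte markers summed to 121 to 578, 21.4 to 868, 6.41 to 62.3 and 2.64 to 311. Of these 4, 1 passed the filter, Cidec, which was called higher under DEN/HFD (2.17 ± 0.41, adjusted p = 0.0177). Lep was at 0 in every DEN/HFD MCOPPB liver and Adipoq at 0 in every DEN/HFD saline liver. The call thus rests on Cidec alone and does not show that adipocytes were present. The other marker lists had no call: stellate sums ran from 947 to 3062, endothelial from 630 to 1090, cholangiocyte from 166 to 700, T cell from 5.77 to 101, B cell from 13.8 to 60.8 and neutrophil from 2.64 to 95.5. Hepatocyte markers had a median MCOPPB difference over both diets of -0.04. The part of these cells in the values above was not tested.

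Some members share sequence with other genes, so their counts are less certain, since the settings of read assignment are not given in the sources used here. Of all 75-base stretches of the annotated transcripts, 33.9% were shared with another gene for Acat2 (with Acat3), 27.5% for Mbtps2, 23.5% for Fdps, 16.7% for Idi1, 16.1% for Tmem97 and 8.83% for Tm7sf2. Sqle, Cyp51, Hmgcs1, Insig2 and Stard4 shared none.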

How the data were processed

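Total liver RNA (250 ng) was made into directional libraries and read as single reads of 75 nt, per the labels' protocols. The submitters' processing notes name DESeq2, HTSeq, STAR 2.7.0e, Trimmomatic and the GRCm38 (mm10) genome, without settings. The deposited values are variance-stabilised log2 levels made by the authors for 54281 Ensembl genes in 15 libraries. Their lowest value, 5.49, stands for 0 reads, and near it differences are compressed. The transformation was inverted to normalized counts, which carry no counting interval because whole reads could not be recovered. GENCODE M21 gave names for 54107 of the IDs.

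Genes at least 1 above the lowest log2 value (22.5 normalized counts) in at least 3 libraries were kept (11568). limma 3.58.1 in R 4.3.3 was fitted with 4 group means over all 15 libraries, eBayes with a mean-variance trend (residual degrees of freedom 11, median prior 6.34), and 2 additive models for effects over both diets or both treatments. Tests were two-sided, adjusted by Benjamini-Hochberg over all kept genes, and called at 0.05. All adjusted p values come from limma. Log2 differences are on the deposited scale with moderated SE. P-values weigh a difference against the spread between animals within groups, pooled over the 4 groups and moderated across genes. In the additive models that spread also holds any difference in effect between the diets or treatments. Log2 differences are given for called members and for those with the smallest p (6 per comparison, up to 10 for the additive models). From other lists at most 4 genes per comparison are named, those called or with the smallest p. The members and lists were chosen with earlier results of these data known. The scripts were tested on simulated data.

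Groups came from sample titles. Replicate numbers were not used to pair animals. The labels carry 2 RNA integrity numbers per animal, and the first was used. Promoter windows and transcripts came from reference tables whose annotation may differ from that of the authors. Alternatives covered the filter, scaling, pseudocount, weights, the integrity number, a replicate block and leaving out each library.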

Additional observations from a re-analysis of the deposited data

Results flagged for a closer look

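In the group of 5 chow MCOPPB livers, replicate 3 lay apart from the others in 2 members: Cyp51, with 3446 normalized counts, and Lss, with 1929. The gap to the next library was 0.810 and 0.770 of the group's range, past Dixon's critical value of 0.71 for 5 values. In all, 58 groups of members were screened, and chance flags about 1 in 20. Replicate 3 was also the highest of its group in 15 of the 20 enzymes. Without it Cyp51 was still called for MCOPPB over both diets (log2 difference 0.86, adjusted p = 0.0326 in limma).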

How the results depend on the processing

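Of 1274 values of the 50 named log2 differences under the alternatives, 1203 kept direction and side of the threshold, 55 lost a call, 16 gained one and 0 reversed. Most of the 50 were not called in the main fit, so only the few called ones could lose a call. In 15 fits with a library left out, the MCOPPB calls were lost in 0 for Sqle, 8 for Cyp51 and 8 for Idi1. The DEN/HFD calls were lost in 10 for Sqle, 11 for Stard4 and, in MCOPPB livers, 5 for Insig2. No scaling moved the median of all genes by over 0.1. The cause of each change below was not tested. Genes called for MCOPPB numbered 15 on chow with the integrity number as covariate; under DEN/HFD 6 without a filter, 0 after quantile normalization, 8 in a fit of only the groups compared (with 1 member, Sqle) and 8 with array weights; and over both diets 25 without a filter (1 member) and 3 with the integrity number (0 members). Genes called for DEN/HFD numbered, in saline livers, 3 with a pseudocount of 10, 3 with array weights and 1 with the integrity number; in MCOPPB livers, 135 in a fit of only the groups compared, 285 with array weights (3 members: Insig2, Stard4 and Idi1) and 0 with the integrity number (0 members); and over both treatments, 56 without a filter (0 members), 392 with array weights and 0 with the integrity number (0 members). The interaction called 2 without a filter, 4 with a pseudocount of 1, 4 with a pseudocount of 10 and 3 with the integrity number.

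Leaving out each library in turn, genes called for MCOPPB numbered 13 to 50 on chow, 0 to 6 under DEN/HFD and 25 to 42 over both diets; for DEN/HFD, 1 to 52 in saline livers, 18 to 157 in MCOPPB livers and 6 to 460 over both treatments; and for the interaction, 2 to 12. Members called numbered 1 to 3 for MCOPPB over both diets, 0 to 2 for DEN/HFD in MCOPPB livers and 0 to 5 over both treatments. The highest DEN/HFD counts came without DEN/HFD saline 4, and 6 without DEN/HFD MCOPPB 3.

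Replicate numbers were not taken as pairs of animals. Of 19 same-numbered pairs of libraries, 5 had residuals correlated above 0.1, with a mean of -0.0273 beside 0.00838 for 64 other pairs. Such correlations over all genes cannot show whether animals were handled together. With a replicate block, which leaves chow MCOPPB 5 without weight, the genes called were 23 for MCOPPB on chow, 0 under DEN/HFD, 16 for DEN/HFD in MCOPPB livers (0 members), 69 over both treatments (1 member) and 2 for the interaction. Insig2 (1.49, adjusted p = 0.0865) and Stard4 (-0.59, adjusted p = 0.0901) lost their calls and Hmgcs1 gained one for MCOPPB (1.27, adjusted p = 0.0349), all in limma.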

Other observations

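A list of core clock and clock output genes had 13 that were tested. Of these, 3 were called lower in DEN/HFD MCOPPB livers than in chow MCOPPB livers, where 40 of all 11568 genes were called lower. The other 10 were not called. The 13 did not share a direction in this comparison, with 10 negative and 3 positive (list median -1.01). Against DEN/HFD saline livers 1 was called lower in DEN/HFD MCOPPB livers (Usp2; 10 of 13 negative, median -0.73), as was 1 in the interaction (Usp2) and 1 for DEN/HFD over both treatments (Tef). Usp2, a ubiquitin protease under clock control, averaged 55.4 ± 9.51 normalized counts in DEN/HFD MCOPPB livers, 383 ± 133 in DEN/HFD saline livers, 547 ± 167 in chow MCOPPB livers and 404 ± 206 in chow saline livers (SD; n = 3, 4, 5 and 3). In limma it fell by 2.25 on the log2 scale between DEN/HFD and chow MCOPPB livers (SE 0.28, adjusted p = 0.000529), without overlap. Tef, a clock-driven transcription factor, fell by 1.43 (SE 0.26, adjusted p = 0.0179) and Per3, a period gene, fell by 1.77 (SE 0.33, adjusted p = 0.019). The hour of sampling and the feeding state are not given in the sources used here, and their part in the Insig2 values was not tested.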
